A study of Mus musculus with 2 samples.

Results

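Chemokines are small secreted proteins that guide migrating leukocytes, and chemokine receptors are the cell-surface proteins that read them. The 48 genes described here are 31 chemokine ligands and 17 receptors of the mouse, taken by gene symbol from the 43346 Ensembl genes that were quantified, and each symbol matched 1 gene. The tissue was sigmoid colon, the last stretch of the large bowel, of 1 female C57BL/6J mouse aged 10 weeks. It carried no treatment or engineered allele in the labels, and polyadenylated RNA was sequenced as 2 technical libraries. Library 2 is the repeat made in May 2015, and library 1 is the first one. They come from 1 biological replicate and form 1 group, so the data hold levels and the spread between 2 libraries, and no value covers variation between mice.

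Most chemokines are named by the spacing of the first cysteines of the mature protein, which stand side by side (CC), 1 residue apart (CXC) or 3 residues apart (CX3C). They bind receptors that pass through the membrane several times, couple to inhibitory G proteins and steer cell movement along a gradient. Homeostatic chemokines place lymphocytes in lymphoid tissue and mucosa, inflammatory ones are induced by microbes and cytokines and draw neutrophils, monocytes and T cells, and atypical receptors take chemokines up without signalling through G proteins. In the gut, the epithelium, stroma and lymphoid follicles are all known sources of these ligands.

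The sequence features that define the family were read from the coding sequences of GENCODE M21 on GRCm38. The stretches shown are those of the most abundant ligand of each cysteine class, of Cxcl1 as an example of the CXC ligands that attract neutrophils, and of the most abundant typical and atypical receptor by mean level. Capitals mark the cysteine motif of the ligands, from the first to the last cysteine codon, and the 7 codons of the receptors that start at the DRY motif (Asp-Arg-Tyr). Each stretch is spliced coding sequence with 18 flanking bases on both sides.
Ccl6, chr11:83587882-83593087, minus strand: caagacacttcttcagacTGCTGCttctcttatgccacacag
Cxcl12, chr6:117168535-117181367, plus strand: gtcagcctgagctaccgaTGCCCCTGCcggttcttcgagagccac
Cxcl1, chr5:90891241-90893115, plus strand: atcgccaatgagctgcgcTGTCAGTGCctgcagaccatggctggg
Cx3cl1, chr8:94772009-94782427, plus strand: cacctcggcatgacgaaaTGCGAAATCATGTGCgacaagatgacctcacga
Ccr2, chr9:124101950-124113557, plus strand: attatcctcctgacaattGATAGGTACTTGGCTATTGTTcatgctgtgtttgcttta
Ackr3, chr1:90203980-90216751, plus strand: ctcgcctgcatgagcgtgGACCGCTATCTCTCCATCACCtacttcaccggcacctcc

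Among the 31 ligands the coding sequences gave 17 with the CC spacing, 13 with CXC and 1 with CX3C. Directly before the CXC motif, 5 ligands (Cxcl1, Cxcl2, Cxcl3, Cxcl5 and Cxcl15) had the residues Glu-Leu-Arg, called the ELR motif of neutrophil attractants, and the other 8 CXC ligands did not. The full DRYLAIV motif, which contacts the G protein, was present in 7 of the 13 typical receptors. Another 5 had DRY but not the exact full motif, and how far their other residues differ was not counted. The remaining typical receptor, Cxcr6, had no DRY. None of the 4 atypical receptors had the full motif. Ackr3 and Ackr4 kept DRY, and Ackr1 and Ackr2 had neither.

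Expected counts totalled 20681574 for library 2 and 25843064 for library 1, and the 48 genes together took 0.0942% of these in library 2 and 0.0958% in library 1. The labelled tissue had its markers. The 5 colon genes summed to 18270 TPM in library 2 and 5686 TPM in library 1 (TPM, a level corrected for transcript length and summing to the same total in each library), against 6.70 TPM in library 2 and 0.86 TPM in library 1 for the 5 small intestine genes, of which lactase (Lct) was at 0.03 and 0 TPM. Smooth muscle markers summed to 4334 TPM in library 2 and 273 TPM in library 1 over 5 genes, and mast cell markers to 4.21 and 3.02 TPM over 5. The libraries stood apart in ways that touch every level below. The share of TPM on mitochondrially encoded genes was 12.6% in library 2 against 44.2% in library 1. TPM values of nuclear genes were mostly higher in library 2, and the part of the mitochondrial share in this was not tested. The median log2 ratio of library 2 over library 1 across all tested genes was 1.18 by TPM, and 0.12 by counts scaled with TMM (trimmed mean of M-values), the scale of all ratios and calls here. The ratio also followed the GC content of the transcripts over all genes. Its median was -1.86 for the 919 genes with 40 to 42% GC and 3.53 for the 1342 genes with 56 to 58%. A gene was called higher or lower in library 2 at 2-fold or more and an adjusted p under 0.05 in a two-sided exact binomial test of its counts. By this rule 37% of all 15705 tested genes were called higher in library 2 and 28.2% lower. Beside the ratio of each of the 48 genes that was called stands its ratio with the GC trend taken off. Where calls over another gene list are given, they are counted both ways. The colon, small intestine, smooth muscle, mast cell, eosinophil and neutrophil lists are given by TPM, without calls.

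By mean level Ccl6 was the highest of the 48, followed by Ccl28, Ccl21a, Cxcl12 and Cx3cl1, but the order below Ccl6 differed between the libraries. The 10 highest genes of library 2 and of library 1 had 6 in common. At 1 TPM or more in both libraries were 23 genes, at 10 TPM or more 6, and under 0.1 TPM in both 3. These shares can be set beside the 21461 nuclear protein-coding genes, of which 46.9% reached 1 TPM in both libraries, 20.5% reached 10 TPM and 26.1% lay under 0.1 TPM. Ligands outweighed receptors. The 31 ligands had sums of 874 TPM in library 2 and 577 TPM in library 1 (mean 725 ± 210, SD over n = 2 libraries), and the 17 receptors to 59.1 TPM in library 2 and 32.5 TPM in library 1 (mean 45.8 ± 18.8). All 6 genes at 10 TPM or more in both libraries were ligands, and each of them was above every receptor in both.

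**Figure D1:**
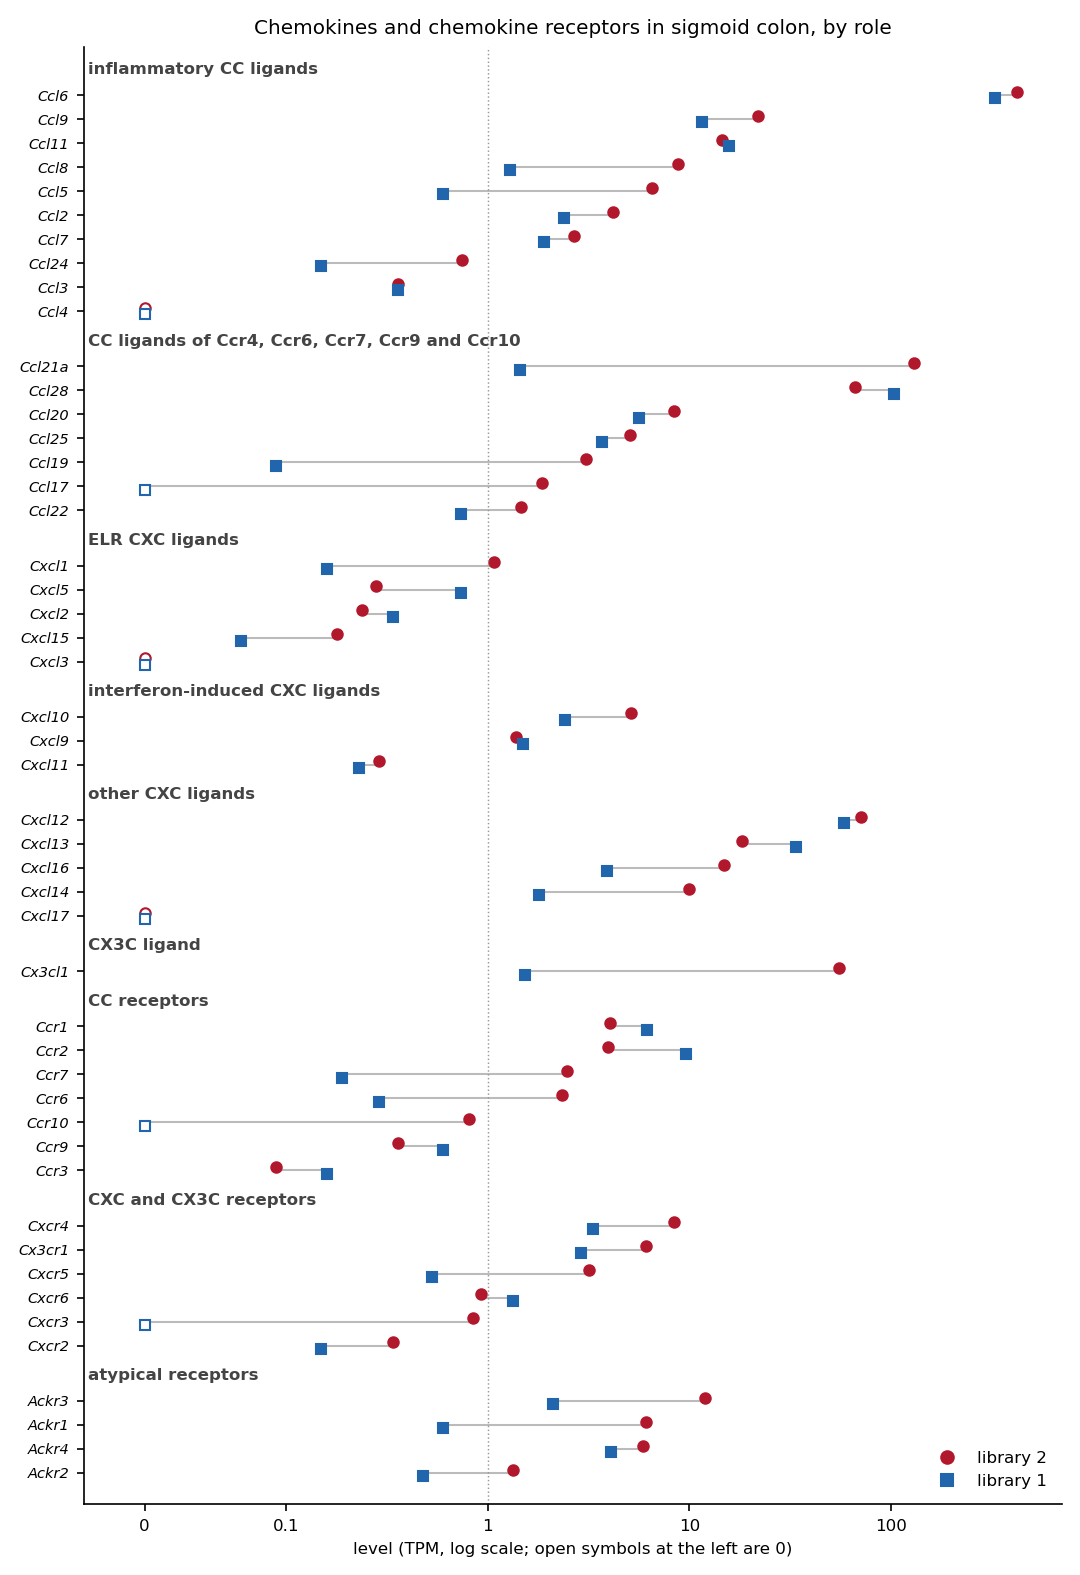
Level of each gene in TPM (log axis) in library 2 (circles) and library 1 (squares), grouped by role and ordered by library 2 within a role; open symbols at the left edge are 0, the dotted line is 1 TPM, and the grey line joins the libraries. Ccl6 stands at 421 TPM in library 2 and 324 TPM in library 1, and Ccl4, Cxcl3 and Cxcl17 are at 0 in both.

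The inflammatory CC ligands had the highest sum of the 9 roles, and almost all of it was 1 gene. The 10 ligands summed to 481 TPM in library 2 and 358 TPM in library 1, of which Ccl6 was 87.6% and 90.5%. Ccl6 is a rodent CC ligand that acts through Ccr1. It had 6340 expected counts and 421 TPM in library 2, and 8462 counts and 324 TPM in library 1. Its level lay at percentile 98.8 of nuclear protein-coding genes in library 2 and 99.5 in library 1. By scaled counts the log2 ratio was -0.85 ± 0.02 (± beside a ratio is the counting SE), which stayed under the 2-fold threshold, and with the GC trend taken off it was 0.22.

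Ccl9 and Ccl11 followed Ccl6 among these ligands. Ccl9, a neighbour and close relative of Ccl6, had 349 counts and 21.7 TPM in library 2, and 674 counts and 11.6 TPM in library 1. It was called lower in library 2 by scaled counts (log2 ratio -1.38 ± 0.10), and no longer with the GC trend taken off (-0.015), and its TPM was higher there. Its transcripts differed in share. A processed transcript of 398 bases, Ccl9-202, had 45.2 of the counts in library 2 and 9.01 in library 1, but because a short transcript counts more per read in TPM it took 65.6% of the gene in library 2 and 15.4% in library 1. The coding transcript alone had 304 counts and 7.48 TPM in library 2, and 665 counts and 9.80 TPM in library 1 (log2 ratio of counts -1.56, also called lower).

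Ccl11, or eotaxin, draws eosinophils through Ccr3. It had 189 counts and 14.6 TPM in library 2, and 339 counts and 15.8 TPM in library 1, and was called lower (log2 ratio -1.27 ± 0.13; 0.35 with the GC trend taken off). Its relative Ccl24 had 12 counts in library 2 and 4 in library 1. The defining eosinophil genes were scarce. Their 4-gene list summed to 2.10 TPM in library 2 and 1.59 TPM in library 1, with the granule gene Epx at 0 in both.

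The monocyte attractants Ccl2 and Ccl7 were low. Ccl2 had 40 counts and 4.17 TPM in library 2, and 39 counts and 2.40 TPM in library 1. Ccl7 had 24 counts and 2.68 TPM in library 2, and 28 counts and 1.90 TPM in library 1. Neither was called (log2 ratios -0.39 ± 0.32 and -0.65 ± 0.40), but Ccl2 was called higher once the GC trend was taken off (1.01). Ccl8, of the same monocyte chemoattractant family, had 42 counts and 8.79 TPM in library 2, and 10 counts and 1.29 TPM in library 1, and was called higher (log2 ratio 1.59 ± 0.50; 2.08 with the GC trend taken off). Ccl5, a T cell and monocyte attractant that T cells make, had 33 counts and 6.50 TPM in library 2, and 5 counts and 0.60 TPM in library 1. It was called higher (2.18 ± 0.66), and no longer with the GC trend taken off (0.53). The macrophage inflammatory proteins were nearly absent. Ccl3 had 3 counts in library 2 and 5 in library 1, and Ccl4 had 0 in both, where a floor of 3 counts corresponds to 0.145 CPM (counts scaled to the library total) in library 2 and 0.116 CPM in library 1.

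The 7 CC ligands of Ccr4, Ccr6, Ccr7, Ccr9 and Ccr10 summed to 216 TPM in library 2 and 114 TPM in library 1. Ccl28, a mucosal chemokine of colon epithelium that attracts IgA plasma cells through Ccr10, led them in library 1. It had 3372 counts and 66.0 TPM in library 2, and 8765 counts and 102.6 TPM in library 1, the largest count of any of the 48 genes. It was called lower in library 2 (log2 ratio -1.81 ± 0.03), while the GC trend at its 40.8% GC left 0.07. Plasma cell markers were abundant, as their 5-gene list summed to 503 TPM in library 2 and 415 TPM in library 1, most of it from Jchain, the joining chain of IgA, and 4 of the 5 were called higher and 1, Jchain itself, lower. With the GC trend taken off, 1 was called higher and 0 lower. The part of plasma cells in the Ccl28 and Ccr10 values was not tested.

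Ccl21a led the same group in library 2. It is the chemokine of lymphatic vessels and lymph node stroma that brings in dendritic cells and naive T cells through Ccr7. It had 1291 counts and 129.95 TPM in library 2, and 23.6 counts and 1.44 TPM in library 1. That difference was the highest called ratio of the 48 (39.1-fold, 95% counting interval 26.7 to 62.6), and its log2 ratio of 5.29 ± 0.29 came down to 2.41 with the GC trend taken off, which was still called. The gene has near-identical copies, so its own share of the reads is uncertain. Of its 31-base words 80.6% also occur in Gm21541, which had 528 counts in library 2 and 0 in library 1. Summed with its 4 copies Ccl21a had 1819 counts and 183 TPM in library 2, and 37.0 counts and 3.83 TPM in library 1. This sum was called higher as well (log2 ratio 5.17 ± 0.24). The lymphatic endothelium list summed to 34.8 TPM in library 2 and 24.6 TPM in library 1, with 1 of its 4 genes called higher and 2 lower, or 0 and 0 with the GC trend taken off. Its part in the Ccl21a value was not tested.

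Ccl19, the other Ccr7 ligand and a product of lymphoid stroma and dendritic cells, had 25.0 counts and 3.06 TPM in library 2, and 1 count and 0.09 TPM in library 1. It was called higher, though the ratio rests on that 1 count (12.6-fold, 95% counting interval 3.04 to 762.2), and with the GC trend taken off the log2 ratio was 0.16. Ccl19 also has copies (58.8% of its words occur in Gm2564), and summed with 4 of them it had 45.01 counts in library 2 and 1 in library 1. The 5 dendritic cell genes summed to 9.30 TPM in library 2 and 4.94 TPM in library 1, with 0 called higher and 2 lower, or 0 and 0 with the GC trend taken off. Their part in the Ccl19 values was not tested.

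Ccl20 and Ccl25 are epithelial ligands. Ccl20, made by epithelium over lymphoid follicles and read by Ccr6, had 76 counts and 8.37 TPM in library 2, and 94 counts and 5.62 TPM in library 1. Its log2 ratio of -0.73 ± 0.22 was not called, but at 39.9% GC it stood above genes of like GC content and was called higher with the trend taken off (1.29). Ccl25, typical of the small intestine and read by Ccr9, had 54 counts and 5.07 TPM in library 2, and 63 counts and 3.69 TPM in library 1, and was not called (-0.65 ± 0.27). The Ccr4 ligands of dendritic cells and macrophages came last. Ccl22 had 43 counts and 1.47 TPM in library 2, and 36 counts and 0.74 TPM in library 1. Ccl17 had 9 counts in library 2 and 0 in library 1. With library 1 set to the floor of 3 counts this is 2.23-fold. Ccl17 had too few counts to be tested. In the range of 50 to 52% GC that holds it, the median log2 ratio of all genes was 0.55.

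The ELR CXC ligands attract neutrophils, and those paired here with Cxcr2 are Cxcl1, Cxcl2, Cxcl3 and Cxcl5. The 5 genes of this role had the lowest sum of the 9 roles, at 1.78 TPM in library 2 and 1.30 TPM in library 1. Cxcl1 had 12 counts in library 2 and 3 in library 1, Cxcl2 had 3 and 7, Cxcl15 had 5 and 3, and Cxcl3 had 0 in both. Only Cxcl5 had enough counts to be tested, with 6 in library 2 and 26 in library 1 (log2 ratio -2.46 ± 0.63, called lower; -0.15 with the GC trend taken off). Cxcl2 and Cxcl3 share 7.59% of the words of Cxcl2, so a few reads could have moved between them. Cytokines that induce chemokines were scarce too. Their 10-gene list summed to 8.63 TPM in library 2 and 7.48 TPM in library 1. The highest by mean were Il33 at 3.45 and 4.06 TPM, Il1b at 3.08 and 1.94 TPM and Tslp at 1.24 and 1.32 TPM. Ifng, Il17a, Il4 and Il13 were at 0 in both. Il6 had 1 count in library 2 and 0 in library 1, and Il22 had 1 count in each. Of the 3 cytokine genes tested, 0 were called higher and 2, Il33 and Tslp, lower by the exact binomial test. With the GC trend taken off these numbers were 0 and 0.

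The interferon-induced CXC ligands, which draw T cells through Cxcr3, summed to 6.82 TPM in library 2 and 4.16 TPM in library 1. Cxcl10 had 58 counts and 5.15 TPM in library 2, and 53 counts and 2.43 TPM in library 1, and was not called (log2 ratio -0.30 ± 0.27). Cxcl9 had 54 counts and 1.38 TPM in library 2, and 98 counts and 1.5 TPM in library 1, and was called lower (-1.28 ± 0.24; 0.17 with the GC trend taken off). Cxcl11, annotated in GENCODE M21 as a polymorphic pseudogene, had 13 counts in library 2 and 20 in library 1, and was not called.

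The remaining CXC ligands summed to 114 TPM in library 2 and 97.6 TPM in library 1, and most of this was Cxcl12. Cxcl12, a stromal chemokine that retains stem cells and lymphocytes through Cxcr4, had 2189 counts and 70.7 TPM in library 2, and 2712 counts and 58.1 TPM in library 1. Its log2 ratio of -0.74 ± 0.04 stayed under the 2-fold threshold (-0.35 with the GC trend taken off), and it held place 3 of the 48 in both libraries. Markers of fibroblasts, a known source of Cxcl12, summed to 738 TPM in library 2 and 620 TPM in library 1, with 1 of 5 called higher and 2 lower, or 0 and 2 with the GC trend taken off.

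Cxcl12 had 3 coding isoforms, which share all but the end of the coding sequence. The ends are printed because the isoforms differ there, with the last shared bases in small letters and the bases particular to each isoform, stop codon included, in capitals.
Cxcl12-202: ctggagaaagctttaaacaagTAA
Cxcl12-203: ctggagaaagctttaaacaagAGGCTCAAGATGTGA
Cxcl12-201: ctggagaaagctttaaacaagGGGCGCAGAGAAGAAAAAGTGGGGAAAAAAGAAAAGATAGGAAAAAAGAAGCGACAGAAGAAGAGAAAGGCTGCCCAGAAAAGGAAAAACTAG
Cxcl12-202, the shortest with 89 codons (the alpha isoform), made up 80.5% of the gene in library 2 and 86.2% in library 1. Cxcl12-203, with 93 codons, had 8.08% and 4.62%, and Cxcl12-201, with 119 codons and a tail rich in lysine and arginine codons, had 8.72% and 3.55%. A transcript with a retained intron took 2.71% and 5.64%. The short isoform was thus the main one in both libraries, and both longer ones had the higher share in library 2.

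Cxcl13, made by follicular stroma and the attractant of B cells through Cxcr5, had 260 counts and 18.2 TPM in library 2, and 801 counts and 33.8 TPM in library 1. It was called lower (log2 ratio -2.05 ± 0.10), and the GC trend at its 41.0% GC left -0.20. Cxcl16, a membrane-bound ligand of Cxcr6 that also acts as a scavenger receptor, had 420 counts and 14.8 TPM in library 2, and 188 counts and 3.89 TPM in library 1, and was under 2-fold (0.73 ± 0.13). Part of its exons (18.3%) lie opposite exons of Zmynd15, which had 47 counts in library 2 and 8 in library 1. Cxcl14, an epithelial and stromal chemokine, had 236 counts and 9.99 TPM in library 2, and 71 counts and 1.80 TPM in library 1. It was called higher by scaled counts (1.30 ± 0.19) and was the only gene of the 48 to be called lower once the GC trend was taken off (-1.35). Cxcl17 had 0 counts in both.

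Cx3cl1, or fractalkine, is the only CX3C ligand. It stands on a mucin stalk in the membrane of epithelial and endothelial cells and is released by proteases. It had 2451 counts and 54.8 TPM in library 2, and 110 counts and 1.54 TPM in library 1, which put it at percentile 88.8 of nuclear protein-coding genes in library 2 and 56.5 in library 1. The ratio was 16.5-fold (95% counting interval 13.7 to 20.2) and called higher, but with 57.1% GC the gene lay near the trend of all genes, which left a log2 ratio of 0.52 that was not called. The 5 epithelial markers summed to 5152 TPM in library 2 and 898 TPM in library 1, of which the keratin Krt8 had 2931 and 60.7 TPM. By scaled counts 2 were called higher and 0 lower. With the GC trend taken off 0 were called higher and 1, the adhesion molecule Epcam, lower (-1.37). Their part in the Cx3cl1 value was not tested. Of its sheddases, Adam10 was at 43.4 TPM in library 2 and 71.8 TPM in library 1, and Adam17 at 20.9 and 19.2 TPM.

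**Figure D2:**
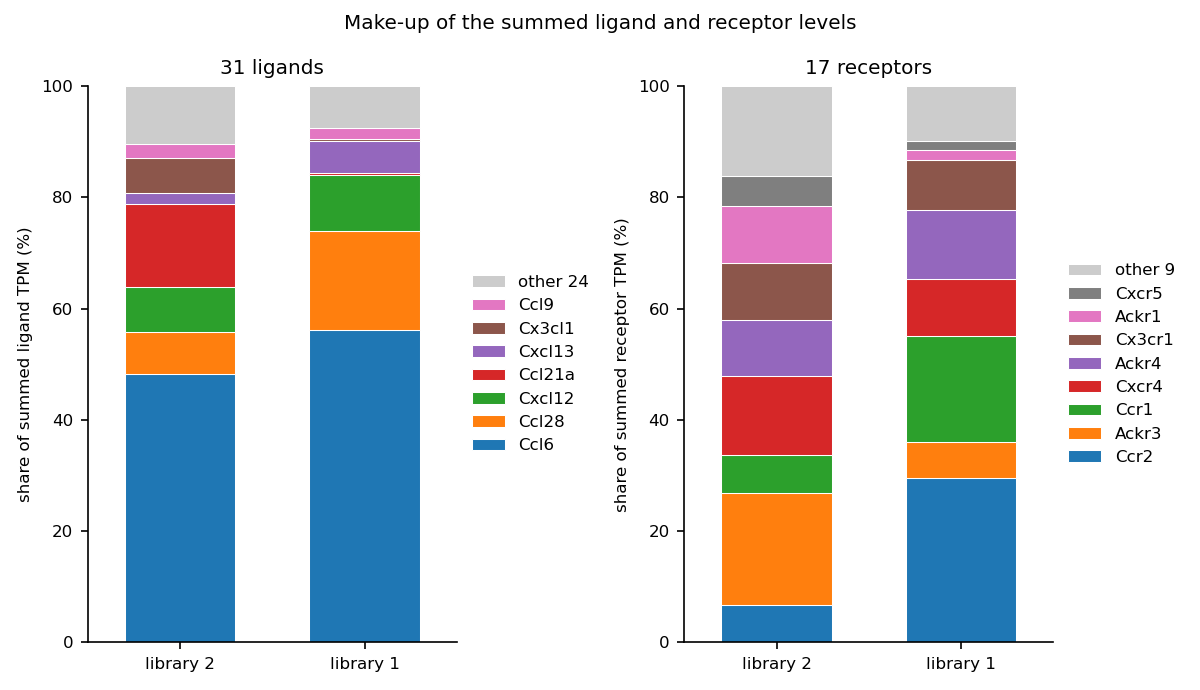
Share of each gene in the summed TPM of the 31 ligands (left) and of the 17 receptors (right), as stacked bars for library 2 and library 1, with the genes of the largest mean share named and the rest in grey. Ccl6 makes up 48.2% of the ligand sum in library 2 and 56.2% in library 1, while Ccl21a makes up 14.9% and 0.249%; Ccr2 makes up 6.67% of the receptor sum in library 2 and 29.5% in library 1.

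Among the receptors no gene dominated, and the leading gene differed between the libraries. The 7 CC receptors summed to 14.03 TPM in library 2 and 17.02 TPM in library 1, the only role whose TPM sum was lower in library 2. Ccr2, the receptor of inflammatory monocytes, had 181 counts and 3.94 TPM in library 2, and 773 counts and 9.60 TPM in library 1, where it was the highest receptor. It was called lower (log2 ratio -2.52 ± 0.12), and the GC trend at its 38.7% GC left -0.33. Ccr1, a receptor of monocytes and neutrophils, had 153 counts and 4.02 TPM in library 2, and 393 counts and 6.18 TPM in library 1, and was called lower as well (-1.79 ± 0.14; 0.35 with the GC trend taken off).

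The lymphocyte receptors Ccr6 and Ccr7 went the other way. Ccr7, which brings naive T cells and dendritic cells to lymph nodes, had 64 counts and 2.48 TPM in library 2, and 8 counts and 0.19 TPM in library 1 (log2 ratio 2.49 ± 0.53, called higher; 0.88 with the GC trend taken off, not called). Ccr6, found on B cells and T helper 17 cells, had 41 counts and 2.33 TPM in library 2, and 9 counts and 0.29 TPM in library 1 (1.70 ± 0.52, called higher; 1.48 with the GC trend taken off, still called). Ccr9, the homing receptor of small intestine T cells, had 15 counts in library 2 and 42 in library 1 and was called lower (-1.88 ± 0.43; -0.51 with the GC trend taken off). Ccr10, the receptor of Ccl28, had 18 counts in library 2 and 0 in library 1. With library 1 set to the floor of 3 counts this is 4.46-fold. Ccr10 had too few counts to be tested. In the range of 56 to 58% GC that holds it, the median log2 ratio of all genes was 3.53. The eosinophil receptor Ccr3 had 4 counts in library 2 and 12 in library 1.

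The 6 CXC and CX3C receptors summed to 19.8 TPM in library 2 and 8.25 TPM in library 1. Cxcr4, the Cxcl12 receptor of lymphocytes and progenitor cells, had 155 counts and 8.41 TPM in library 2, and 130 counts and 3.34 TPM in library 1, and was not called (log2 ratio -0.18 ± 0.17). Cx3cr1, the fractalkine receptor that marks gut macrophages, had 311 counts and 6.10 TPM in library 2, and 246 counts and 2.89 TPM in library 1, and was not called (-0.09 ± 0.12). Other macrophage genes differed more, since their 7-gene list summed to 246 TPM in library 2 and 28.6 TPM in library 1, with 5 called higher and 1 lower, or 3 and 0 with the GC trend taken off. Both libraries come from the same biological replicate, and the cause of this difference between them was not tested. Within a library of bulk tissue, few cells of a type and little RNA per cell cannot be told apart.

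Cxcr5, the B cell receptor of Cxcl13, had 111 counts and 3.17 TPM in library 2, and 31 counts and 0.53 TPM in library 1, and was called higher (log2 ratio 1.39 ± 0.29; 0.14 with the GC trend taken off, not called). The 5 B cell markers summed to 60.6 TPM in library 2 and 18.4 TPM in library 1, with 4 called higher and 1 lower, or 2 and 0 with the GC trend taken off. Cxcr5 also overlaps Bcl9l on the opposite strand (3.30% of its exon bases), which had 768 counts in library 2 and 0 in library 1, and how much either moved its value was not tested. Cxcr6, on resident T cells, had 23 counts and 0.93 TPM in library 2, and 55 counts and 1.34 TPM in library 1, and was called lower (-1.67 ± 0.36; -0.18 with the GC trend taken off). Cxcr3, on effector T cells, had 19 counts in library 2 and 0 in library 1. With library 1 set to the floor of 3 counts this is 4.70-fold. Cxcr3 had too few counts to be tested. In the range of 54 to 56% GC that holds it, the median log2 ratio of all genes was 2.36. The 6 T cell markers summed to 15.2 TPM in library 2 and 2.88 TPM in library 1, with 1 called higher, 0 lower and 5 not called (2 higher and 0 lower with the GC trend taken off), and their part in the Cxcr3 and Cxcr6 values was not tested. Cxcr2, the neutrophil receptor, had 14 counts in library 2 and 10 in library 1. The 5 neutrophil markers summed to 128 TPM in library 2 and 37.7 TPM in library 1, but nearly all of that was Ly6g, while Mpo was at 0 in both.

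The 4 atypical receptors summed to 25.2 TPM in library 2 and 7.27 TPM in library 1. Ackr3, which takes up Cxcl12, had 436 counts and 11.9 TPM in library 2, where it was the highest receptor, and 147 counts and 2.12 TPM in library 1. It was called higher by scaled counts (log2 ratio 1.14 ± 0.14) and with the GC trend taken off (1.07). Ackr1, the Duffy receptor of venules and red cells, had 85 counts and 6.07 TPM in library 2, and 14 counts and 0.60 TPM in library 1, and was called higher both ways (2.13 ± 0.41, and 1.46). Its exons overlap those of Cadm3 on the same strand, which had 388 counts in library 2 and 114 in library 1. The sum of both genes was also called higher (1.45 ± 0.14). Cadm3 gave most of the 473 summed counts in library 2 and 128 in library 1, so this call says little of Ackr1 alone. Markers of blood endothelium summed to 61.4 TPM in library 2 and 13.5 TPM in library 1 (3 of 5 called higher, 0 lower), and those of red blood cells to 2803 TPM in library 2 and 70.9 TPM in library 1 (5 of 5 higher). With the GC trend taken off, 2 and 4 of these were called higher and 0 lower. Their part in the Ackr1 value was not tested. Ackr4, a scavenger of Ccl19, Ccl21 and Ccl25, had 188 counts and 5.90 TPM in library 2, and 216 counts and 4.07 TPM in library 1, and was not called (-0.63 ± 0.14). It shares 8.90% of its exon bases with Acad11 on the opposite strand, which had 3091 counts in library 2 and 2943 in library 1. Ackr2, a scavenger of inflammatory CC chemokines, had 50 counts and 1.34 TPM in library 2, and 30 counts and 0.48 TPM in library 1, and was not called (0.30 ± 0.33; -0.96 with the GC trend taken off).

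Receptors were then set beside their main ligands, by TPM summed over the ligands named for each of 13 receptors. The ligand sum was above its receptor in both libraries for 11 of the 13, among them Ccr10 and Cxcr3, which were at 0 in library 1. For Cxcr4 the ligand Cxcl12 was 8.41 times the receptor in library 2 and 17.4 times in library 1. For Ccr6 the ligand Ccl20 was 3.59 times the receptor in library 2 and 19.4 times in library 1, and for Cxcr5 the ligand Cxcl13 was 5.75 and 63.8 times. Only Ccr2 and Cx3cr1 changed sides. Ccl2 and Ccl7 together were 1.74 times Ccr2 in library 2 and 0.448 times in library 1, and Cx3cl1 was 8.98 times Cx3cr1 in library 2 and 0.533 times in library 1. A ratio of transcripts says nothing of the amounts of protein or of which cells made them. These ratios use TPM as deposited, with no GC trend taken off. With it taken off, the log2 ratios between the libraries were 0.52 for Cx3cl1, -0.19 for Cx3cr1 and -0.33 for Ccr2, none of them called. Cxcl13 (-0.20), Cxcr5 (0.14) and Ccl7 (0.86) were not called either, while Ccl2 was called higher (1.01). The part of GC content in the ratios of ligand to receptor was not tested.

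**Figure D3:**
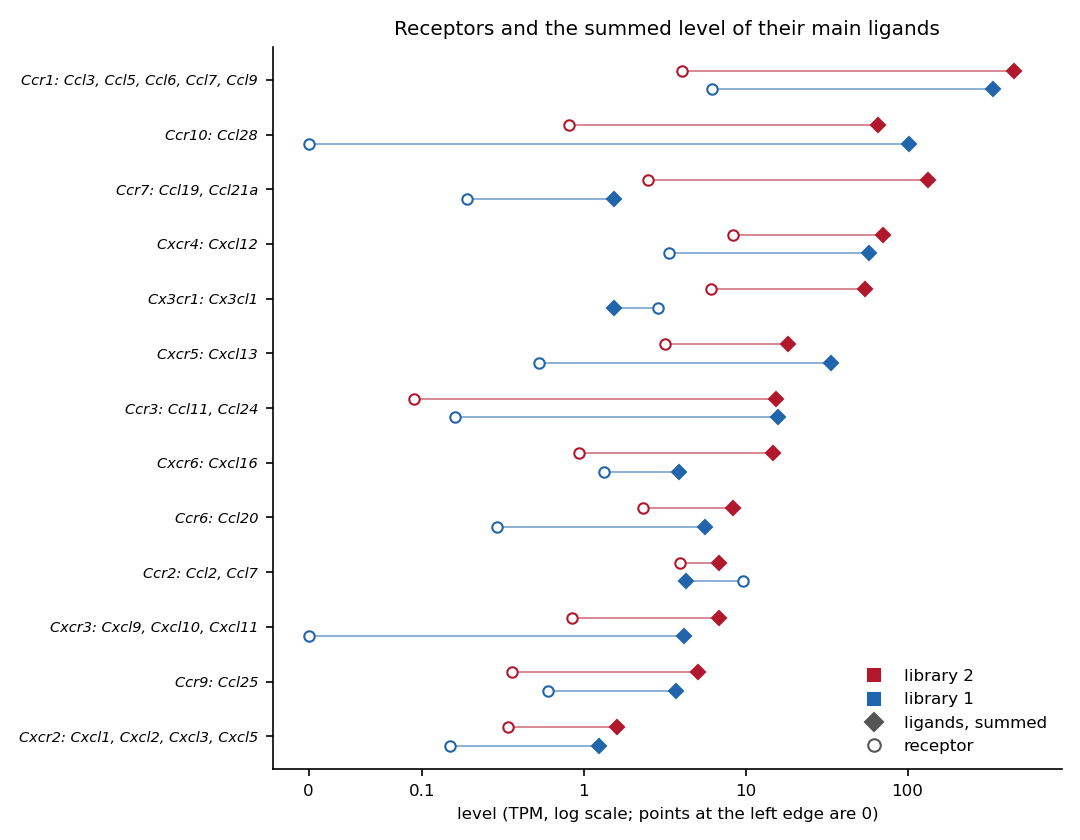
Level in TPM (log axis) of 13 receptors (open circles) and of the summed ligands named beside each (diamonds), for library 2 (red, upper line of each pair) and library 1 (blue, lower line); points at the left edge are 0. The diamonds lie to the right of the circles in both libraries for 11 receptors, and for Ccr2 and Cx3cr1 in library 2 only.

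A test of the difference between the libraries was possible for 36 of the 48 genes, those with a mean expected count of 10 or more. With 1 library on each side this compares the libraries and not mice or conditions. Of the 36 genes, 11 (30.6%) were called higher in library 2, where 37% of all 15705 tested genes were, and 10 (27.8%) were called lower, where 28.2% of all genes were. The shares are thus near the background, and the median log2 ratio was -0.35 for the 36 genes against 0.12 for all genes. The genes called higher had 47.6 to 57.1% GC (median 53.5%) and those called lower 37.8 to 43.7% (median 41.6%). These ranges did not overlap, but the sets are small. Over all genes the medians were 55.6% for those called higher and 43.0% for those called lower. There the ranges overlapped, at 36.4 to 72.8% and 30.1 to 62%. With the GC trend taken off, 7 of the 36 (19.4%) were called higher, where 12.5% of all genes were, and 1 (2.78%) lower, where 11.2% were. The 7 were Ccl21a, Ccl8, Ackr1, Ccr6, Ackr3, Ccl20 and Ccl2, of which the first 5 had been called higher before. With the length trend taken off in place of the GC trend, only Ccl21a of the 7 was called higher (log2 ratio 3.93). Ccl8 (0.33), Ackr1 (0.94), Ccr6 (0.65) and Ackr3 (0.81) fell under 2-fold, and Ccl20 (-2.11) and Ccl2 (-1.76) were called lower.

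**Figure D4:**
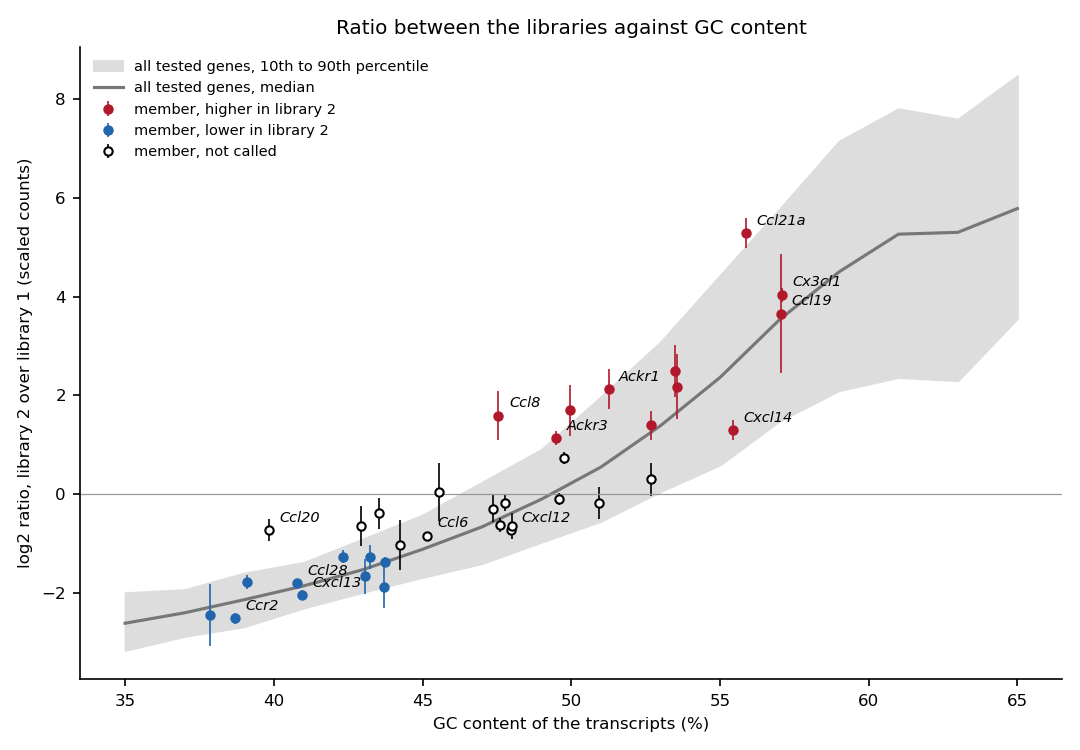
Log2 ratio of library 2 over library 1 by scaled counts against GC content, for the 36 tested genes (points, bars are the counting SE) and for all tested genes (median line and the 10th to 90th percentile band in bins of 2 points of GC). Genes called higher in library 2 (red) lie at 47.6 to 57.1% GC and those called lower (blue) at 37.8 to 43.7%; Ccl21a, Ccl8 and Ccl20 are among those above the band, and Cxcl14 lies near its lower edge.

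Direction also depended on the scale. By TPM as deposited, 33 of the 48 genes were higher in library 2 and 11 lower, and 8 of the 9 role sums were higher. Rescaled to the nuclear protein-coding genes alone, 20 genes were higher and 25 lower. Only the sums of the CX3C ligand and of the atypical receptors remained higher. This rescaling takes out the mitochondrial share and also the TPM of all other genes outside that set, and their separate parts were not tested. The whole set then summed to 1238 TPM in library 2 and 1946 TPM in library 1, against 933 and 610 TPM as deposited.

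Other transcript shares were closer between the libraries than those of Ccl9. Ccl6-201, its coding transcript, made up 68.2% of the gene in library 2 and 75.0% in library 1, and Ccl6-202, which retains an intron, 31.2% and 24.5%. The coding transcript of Cxcl16 had 61.6% and 64.7%, with most of the rest, 36.1% and 35.3%, in a transcript annotated for nonsense-mediated decay. Cx3cl1 was almost all 1 transcript, at 99.3% and 94.2%. In Ccr2 the transcript Ccr2-202 led with 66.3% in library 2 and 62.0% in library 1. Cxcr4-202, a short form of 902 bases, had 37.96% in library 2, from 33.2 counts, and 0% in library 1, and the short Ackr3-202 had 12.9%, from 5 counts, and 0%. The 3 coding transcripts of Ccl20 shared the gene, and their order of the top pair changed, with Ccl20-202 at 56.9% in library 2 and 38.6% in library 1 and Ccl20-203 at 39.1% and 45.5%.

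**Figure D5:**
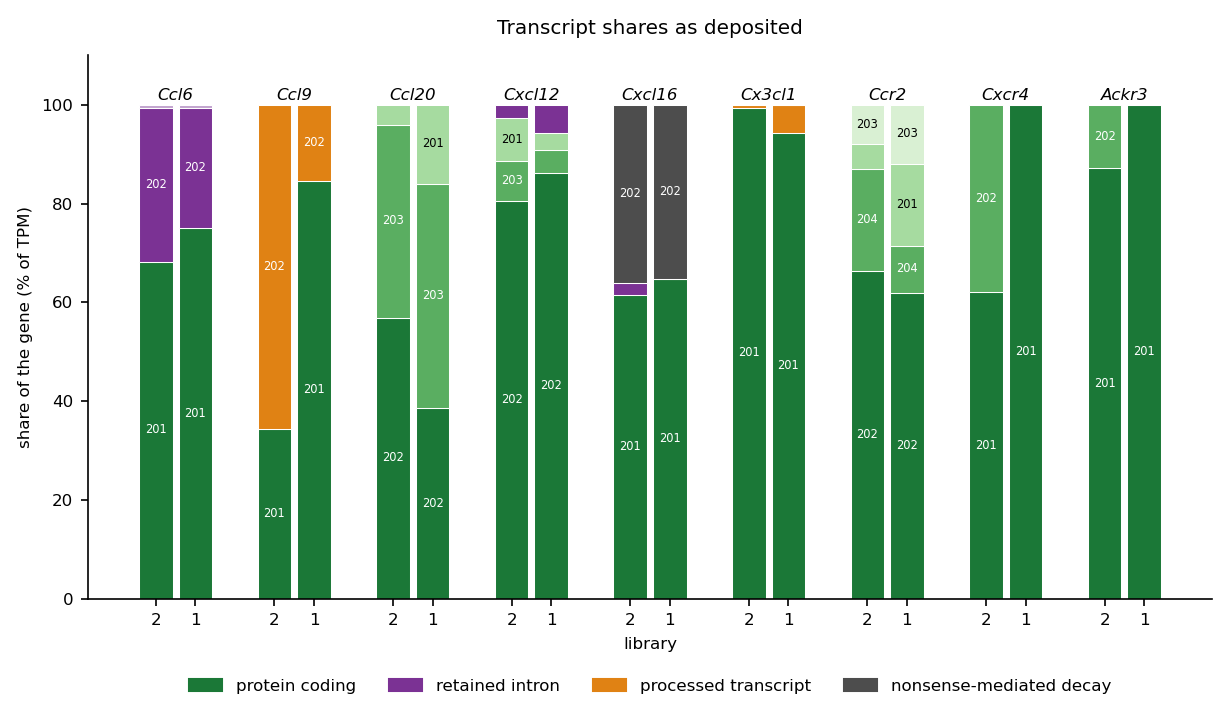
Share of each gene's TPM by transcript, as deposited, for library 2 (left bar) and library 1 (right bar) of 9 genes; colours give the annotated transcript type and shades separate transcripts of a type. The short processed transcript takes 65.6% of Ccl9 in library 2 and 15.4% in library 1, while Cxcl12-202 leads its gene in both.

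The family is clustered in the genome, and levels differed within clusters. On chromosome 11 (chr11:83525778-83664683, GRCm38) Ccl5, Ccl9, Ccl6, Ccl3 and Ccl4 lie within 139 kb and summed to 449.8 TPM in library 2 and 337 TPM in library 1, but Ccl6 and Ccl4 were the highest and among the lowest of all 48. On chromosome 5 (chr5:90759360-90905938) the 5 ELR ligands lie within 147 kb and all were near or under 1 TPM. Another group (chr8:94745590-94812036) holds Ccl22, Cx3cl1 and Ccl17, of which Cx3cl1 was the highest in both libraries. The receptor cluster on chromosome 9 (chr9:123678439-124113557) holds Ccr9, Cxcr6, Ccr1, Ccr3 and Ccr2 and summed to 9.34 TPM in library 2 and 17.9 TPM in library 1. All 5 had lower TPM in library 2, and all lie at 38.7 to 43.7% GC. With the GC trend taken off, none of Ccr9 (-0.51), Cxcr6 (-0.18), Ccr1 (0.35) and Ccr2 (-0.33) was called, and Ccr3 had too few counts to be tested.

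Relatives and partners of the family were measured as well. Of 15 other chemokine family genes measured, Rarres2, the attractant chemerin, had the highest mean level at 102 TPM in library 2 and 2.24 TPM in library 1, followed by the platelet chemokine Pf4, the highest in library 1, at 34.0 and 6.38 TPM and Ccl27a at 13.6 and 2.53 TPM. Of the 8 tested, 4 were called higher and 2 lower, or 3 and 0 with the GC trend taken off, and Ccl1, Ccl26 and Cxcr1 were at 0 in both. Among 18 genes that carry the receptor signal, 9 were called higher, 3 lower and 6 not, and with the GC trend taken off 3 were called higher and 3 lower. The highest of them was Rac1, a GTPase of cell movement, at 269.9 TPM in library 2 and 145 TPM in library 1. The inhibitory G protein subunits split. Gnai2 had 165 TPM in library 2 and 10.7 TPM in library 1 and was called higher (log2 ratio 3.08), while Gnai3 had 70.4 and 99.1 TPM and was called lower (-1.66), and with the GC trend taken off these ratios were -0.02 and 0.06. Of 10 genes that switch receptors off, 5 were called higher and 2 lower, among them Grk2, a receptor kinase, higher at 77.1 TPM in library 2 and 6.81 TPM in library 1, and Rgs1, a regulator of G protein signalling in lymphocytes, lower at 36.7 and 55.5 TPM. With the GC trend taken off 2 were called higher, Grk2 still among them, and 0 lower. Of 7 proteases that shed or trim chemokines, 3 were called higher and 4 lower, or 1 and 0 with the GC trend taken off. Dpp4, which clips several chemokines, was at 19.5 TPM in library 2 and 33.5 TPM in library 1.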

How the data were processed

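Polyadenylated RNA of 1 sigmoid colon was measured in 2 technical libraries, with the lipid tissue RNA kit and the size range of 350 to 450 that the labels name. Per the file headers, the authors' deposited gene tables hold expected counts (estimated counts, with reads shared among transcripts by a model), TPM and a posterior mean of TPM, on mm10 with GENCODE M4. The authors' transcript tables add, per the file headers, the percent of a gene's TPM in each transcript, and FPKM values that were deposited beside TPM were not used. Aligner, quantifier and strand setting: not given in the sources used here. Without them, overlapping genes on opposite strands cannot be told apart. The members, their roles, the ligands paired with receptors and all other gene lists were chosen with earlier results of these data known.

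Members were found by Ensembl identifier through a table of gene names. Positions, transcript types and sequences came from GENCODE M21 on GRCm38, the same assembly. Motifs were read from the most abundant coding transcript of each member, for ligands as the first cysteine pair after the stretch where a signal peptide lies, and copies were genes sharing at least 20% of a member's 31-base words. Levels are TPM per library with the SD over n = 2. GC content is the mean over a gene's transcripts weighted by TPM, known for 99.7% of tested genes. Expected counts were rounded to whole numbers. With 1 library on each side edgeR's quasi-likelihood test has no residual degrees of freedom, so counts were tested by a two-sided exact binomial test given TMM effective library sizes (edgeR 4.0.16, R 4.3.3), whose ratio, library 2 to library 1, was 1.35. Benjamini-Hochberg adjustment ran over the 15705 genes that averaged 10 or more expected counts. A gene was called at an adjusted p under 0.05 and 2-fold or more. These p-values measure counting error between 2 libraries of 1 mouse. Ratios used a prior count of 0.5. Intervals (95%) cover counting error only. Folds against the floor of 3 counts take the count of library 2 as exact and are no lower bound. The GC and length trends were lowess fits with a fraction of 0.2 (statsmodels 0.14.6, Python 3.11.15). The test was tried on simulated counts first. All members are named; every member with a mean of 1 TPM or more or a call has its values in both libraries, and of the other lists up to 3 genes, and those under 0.1 TPM in both libraries, are named. Gnai3 and Adam17 were named outside this rule after their values were seen, and genes that overlap or copy a member are named with it. Alternatives were DESeq2 1.42.0 size factors, other filters, folds and library sizes, trends taken off, TPM ratios, posterior means and each library alone.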

Additional observations from a re-analysis of the deposited data

How the results depend on the processing

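No paired analysis was possible because both libraries belong to 1 group of 1 mouse. The 48 genes summed to a mean of 771 TPM as deposited and to 1592 TPM rescaled over nuclear protein-coding genes. Under that rescaling the role means moved to 891, 325, 3.26, 11.2, 231, 36.5 and 26.3 TPM, in the order inflammatory CC ligands, other CC ligands, ELR, interferon-induced and other CXC ligands, CC receptors, CXC and CX3C receptors, and to 1501 TPM for all ligands and 91.1 TPM for all receptors. Library 2 and library 1 each lie within 1 SD of their own mean by construction; a single library gave 610 to 933 TPM for the whole set and 24 to 33 genes at 1 TPM or more. Genes called higher numbered 11, but 5 at a mean count of 50 or more, 7 with the GC trend taken off, 4 with the length trend taken off and 6 at 4-fold. Genes called lower numbered 10, but 1, 20 and 3 with the GC trend off, the length trend off and at 4-fold. DESeq2 size factors and other library sizes kept both counts within 1.5 times. The median log2 ratio of all tested genes, 0.12, became -0.23 with the length trend taken off and -0.01 with the GC trend taken off.

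With the GC trend taken off, log2 ratios changed sign to 1.01 (Ccl2), 0.22 (Ccl6), 0.86 (Ccl7), 0.35 (Ccl11), 1.29 (Ccl20), 0.0715 (Ccl28), 0.17 (Cxcl9), 0.24 (Cxcl10), 0.23 (Cxcl11), -1.35 (Cxcl14), 0.35 (Ccr1), 0.25 (Cxcr4) and -0.96 (Ackr2). By the ratio of TPM values 13 of the 36 tested genes changed sign, all to higher in library 2 (0.28 to 1.33). Ccl9 (0.91) was the 1 called gene among them, and the other 12 were not called by scaled counts. The call of Ccl9 was lost with the GC trend taken off (-0.015). Cxcr2 changed from a ratio near 0 to -0.0176 with DESeq2 size factors and -0.14 with the length trend taken off, and Ackr2 to -0.0185 with the latter trend. The cause of these changes was not tested. Sums of Ccl21a and Ccl19 with their copies, and of Ackr1 with the overlapping Cadm3, were added after the data were seen. So was the coding transcript of Ccl9. All kept their calls, but the Ackr1 sum was mostly Cadm3. Depth limits the 12 genes that could not be tested, and the counts cannot show whether genes at 0 are absent.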
